A study of Mus musculus with 8 samples.

Results

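De novo lipogenesis is the synthesis of fatty acids from carbohydrate carbon, and the genes described here are 8 of its enzymes and factors (Fasn, Acaca, Acacb, Acly, Acss2, Me1, Pklr and Thrsp) with their transcriptional regulators Srebf1 and Mlxipl. They were taken by symbol from the table of estimated counts, where all 10 were found among 55401 genes and all 10 passed the filter on low counts. Liver RNA came from NOD Scid Gamma (NSG) mice, an immunodeficient strain without mature T, B and natural killer cells. Each mouse bore, under the skin, a xenograft of Colo201 (given as FGF19-Hi) or HCT116 (given as FGF19-Lo), both human colorectal cancer lines, with 4 libraries per line, of which 2 were labelled male and 2 female. FGF19 is an intestinal hormone that acts on hepatocytes. No tumour-free hosts were analysed here and each line stood for a single FGF19 level, so the part of FGF19 in a difference between hosts cannot be told apart from that of other traits of the tumours. The sources used here give no ages, tumour sizes or feeding state.

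In the liver, the pathway runs from glycolysis through mitochondrial citrate to cytosolic acetyl-CoA, which is carboxylated to malonyl-CoA and built into palmitate with reducing power from NADPH. It is known for rising after carbohydrate feeding, when insulin acts through SREBP-1c, a product of Srebf1, and glucose metabolites act through ChREBP, the product of Mlxipl. Both factors are regulated at the protein level as well, by proteolytic release from the endoplasmic reticulum in the first case and by activation through sugar phosphates in the second, which RNA counts do not show.

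The libraries were even in depth, with 61347603 to 65457482 estimated counts and 19370 to 20272 genes above 0. Each title is a number followed by L or R. Numbers 2 (labelled male) and 4 (labelled female) belong to Colo201, and 1 (labelled male) and 3 (labelled female) to HCT116. Where 4 values of a line are listed, they follow the order 2L, 2R, 4L, 4R for Colo201 and 1L, 1R, 3L, 3R for HCT116. Nothing says that L and R under a number are different animals, and p-values therefore measure a spread between libraries that may be technical. In all 8 libraries the sex label went against X-linked expression: Xist, the RNA of the inactive X chromosome, stood at 239 to 374 CPM (counts scaled to a library total of 1000000) under the label male and 0.275 to 0.833 CPM under the label female. The labels are therefore used only as labels. Hepatocyte markers summed to 121000 to 180000 CPM.

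Promoters are shown for Acly, the member that passed the comparison of lines, and for Fasn, the member nearest to it across libraries. Those of Srebf1, a regulator of both in mouse liver, are also shown, because the contrasts below turn on these genes. Each runs from 250 bases before to 50 after an annotated start (RefSeq, GRCm38.p6, all on the minus strand, printed 5′ to 3′ along the gene). Acly lies at chr11:100527951-100528250 and Fasn at chr11:120824498-120824797. Srebf1 has 3 listed starts, and its windows are chr11:60222532-60222831 for the most upstream, chr11:60220578-60220877 for the second and chr11:60210422-60210721 for the downstream start. Capitals mark matches, on either strand, to CCAAT, the site of NF-Y, and to GGGCGG, the GC box bound by Sp1.
Acly: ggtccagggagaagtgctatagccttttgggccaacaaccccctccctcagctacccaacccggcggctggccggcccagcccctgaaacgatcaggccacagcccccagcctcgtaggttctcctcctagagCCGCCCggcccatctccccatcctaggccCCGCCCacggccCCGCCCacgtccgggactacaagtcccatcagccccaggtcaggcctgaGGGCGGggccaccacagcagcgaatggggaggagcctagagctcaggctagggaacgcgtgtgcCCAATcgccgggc
Fasn: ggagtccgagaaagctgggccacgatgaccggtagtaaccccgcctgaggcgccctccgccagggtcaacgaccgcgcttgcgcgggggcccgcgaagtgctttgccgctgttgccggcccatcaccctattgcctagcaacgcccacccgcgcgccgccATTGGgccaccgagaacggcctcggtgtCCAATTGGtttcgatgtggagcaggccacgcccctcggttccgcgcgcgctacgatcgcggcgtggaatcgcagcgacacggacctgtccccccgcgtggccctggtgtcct
Srebf1 upstream start: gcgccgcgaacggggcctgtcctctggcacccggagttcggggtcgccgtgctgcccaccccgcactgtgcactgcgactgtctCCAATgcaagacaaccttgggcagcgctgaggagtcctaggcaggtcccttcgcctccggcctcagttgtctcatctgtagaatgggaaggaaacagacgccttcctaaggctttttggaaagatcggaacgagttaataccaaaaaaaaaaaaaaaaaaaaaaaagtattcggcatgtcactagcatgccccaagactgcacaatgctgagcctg
Srebf1 second start: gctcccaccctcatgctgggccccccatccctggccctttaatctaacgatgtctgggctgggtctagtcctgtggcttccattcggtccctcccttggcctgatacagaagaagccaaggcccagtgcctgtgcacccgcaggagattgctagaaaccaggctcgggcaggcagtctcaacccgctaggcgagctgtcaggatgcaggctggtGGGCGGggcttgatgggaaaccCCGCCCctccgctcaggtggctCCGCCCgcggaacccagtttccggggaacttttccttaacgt
Srebf1 downstream start: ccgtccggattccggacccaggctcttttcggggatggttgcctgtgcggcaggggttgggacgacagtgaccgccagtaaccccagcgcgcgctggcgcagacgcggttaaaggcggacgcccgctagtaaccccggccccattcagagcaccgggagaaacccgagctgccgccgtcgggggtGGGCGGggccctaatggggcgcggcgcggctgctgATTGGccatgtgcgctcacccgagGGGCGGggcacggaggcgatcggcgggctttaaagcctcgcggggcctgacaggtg
The Fasn window held 3 matches to CCAAT, at -90, -62 and -59 from the start, of which the last pair overlap as a palindrome. Acly held GC boxes at -117, -88, -76 and -27 and a CCAAT at 38, the upstream Srebf1 window a CCAAT at -166, and the second Srebf1 window GC boxes at -36, -14 and 9. The downstream Srebf1 window held both, a CCAAT at -30 and GC boxes at -65 and -6. CCAAT occurred in 6 of the 10 members' windows, against 37.9% of the windows of 27025 genes, and GGGCGG in 3 of 10, against 35.9%. The SREBP core TCACNCCAC matched 1 of 10 windows (1.22% of all genes), the E-box CACGTG 0 of 10 (7.24%) and TATAAA 1 of 10 (14.2%). For each gene these counts used the first listed start and both strands. The second listed start of Pklr held TATAAA at -31 and a CCAAT at -117, and that of Me1 a CCAAT at -208. That of Mlxipl held CACGTG at -98, a CCAAT at -173 and GC boxes at -188 and -38. A match is a run of letters and not a measured binding site.

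The main question was which lipogenic genes differed between the livers of Colo201 hosts and those of HCT116 hosts. Acly was higher in Colo201 hosts, 1.49-fold, and was the only 1 of the 10 members to pass the threshold of an adjusted p of 0.05, where 4.78% of the 17669 tested genes passed, 2.48% higher and 2.30% lower. Fasn showed a difference of the same size, 1.50-fold, and Acacb one nearly as large, but neither passed. The regulators lay the other way, with lower means in Colo201 hosts for Srebf1 and Mlxipl that did not pass either. Over the 10 members the log2 fold changes were positive for 5 and negative for 5, with a median of 0.07 against 0.00 over all tested genes. An unadjusted p under 0.05 was reached by 4 of the 10, against 21.7% of all genes. For all 10 the CPM of the lines overlapped, whereas 12.0% of all genes had no overlap.

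**Figure D1:**
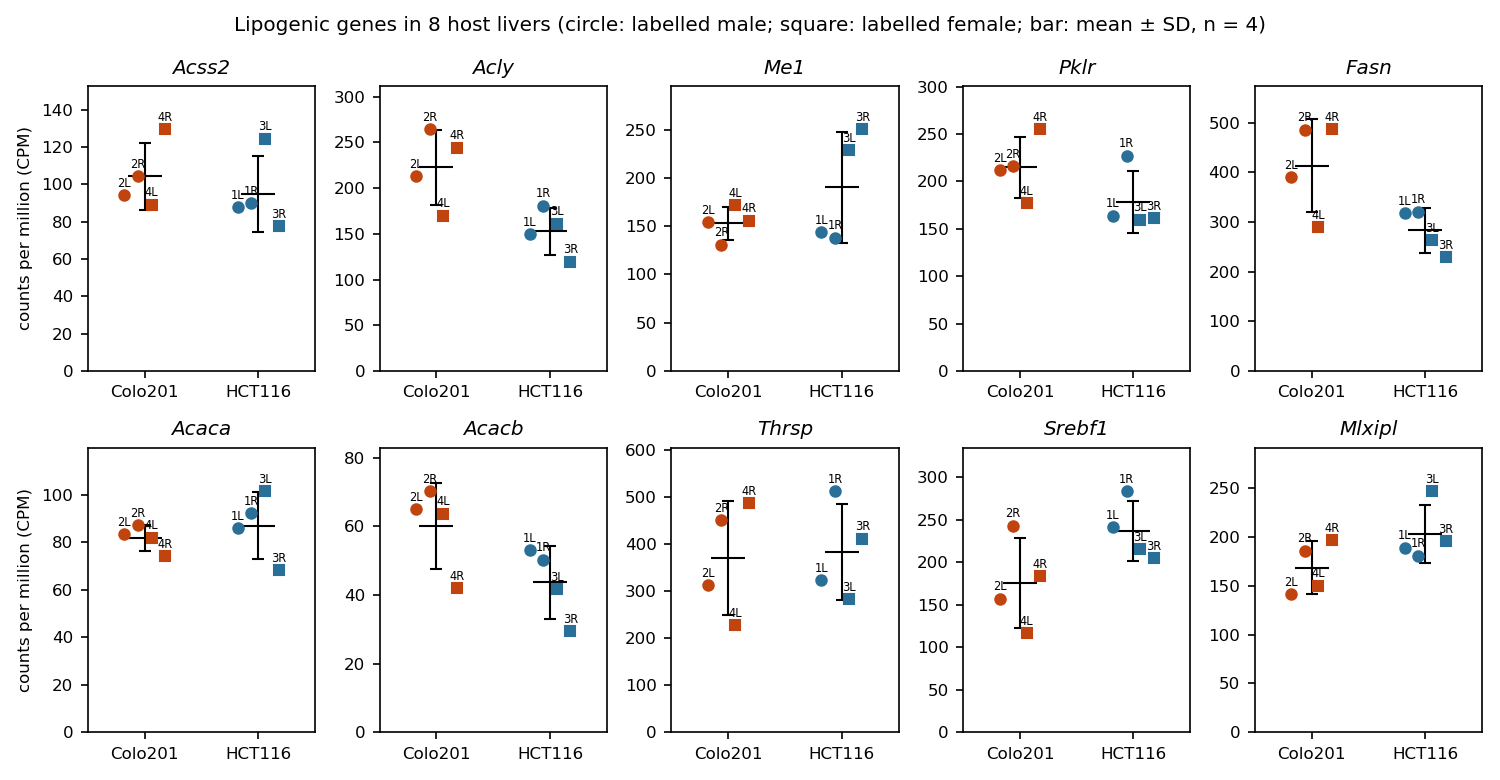
CPM of the 10 lipogenic genes in each library, with hosts of Colo201 and of HCT116 side by side, the mean ± SD of 4 libraries as bars and the sex label as the marker shape. Acly lies at 170 to 264 CPM in Colo201 hosts and 119.5 to 180.9 CPM in HCT116 hosts, while Srebf1 lies at 117 to 243 against 205 to 284 CPM.

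Pklr codes for the liver isoform of pyruvate kinase, the last step of glycolysis, and opens the supply of carbon. It was measured at 211.8, 215.8, 177.1 and 254.9 CPM in Colo201 hosts, and at 164.0, 227.2, 159.8 and 161.4 CPM in HCT116 hosts. A single HCT116 library, 1R, stood within the range of the Colo201 hosts and the other 3 lay below every Colo201 library. The log2 fold change was 0.31 (SE 0.14, 95% confidence interval -0.02 to 0.63, adjusted p = 0.251, edgeR quasi-likelihood test with Benjamini-Hochberg adjustment, as for every adjusted p that follows). In the annotation Pklr shares 711 exonic bases with Hcn3 on the other strand, a gene with at most 2104 counts in a library.

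Acly is ATP citrate lyase, which cleaves exported citrate to cytosolic acetyl-CoA (ENSMUSG00000020917, chr11:100476353-100528000, minus strand, GRCm38). It stood at 212.9, 264.2, 170 and 244.3 CPM in Colo201 hosts and at 149.5, 180.9, 161.0 and 119.5 CPM in HCT116 hosts. The means were 223 ± 41.0 and 153 ± 25.7 CPM (SD, n = 4 each). The lines overlapped by a single pair, since Colo201 4L lay below HCT116 1R. The log2 fold change was 0.58 (SE 0.13, 95% confidence interval 0.27 to 0.88, adjusted p = 0.0484). The call stood close to the threshold: without any 1 of the 8 libraries the adjusted p was 0.054 to 0.134, and with L and R of each title number summed it was 0.137. The fold change itself stayed between 0.47 and 0.66 on the log2 scale.

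Acss2, the cytosolic acetyl-CoA synthetase that makes acetyl-CoA from acetate, did not follow Acly. It measured 94.4, 104.5, 89.1 and 129.4 CPM in Colo201 hosts and 87.9, 89.9, 124.5 and 77.5 CPM in HCT116 hosts. The ranges overlapped almost wholly, each line having a single library well above its others, 4R and 3L. The log2 fold change was 0.17 (SE 0.15, 95% confidence interval -0.17 to 0.51, adjusted p = 0.567). Acss2 shares 395 exonic bases with Gss on the other strand, which had 4501 to 7786 counts.

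Me1, cytosolic malic enzyme, returns pyruvate and supplies NADPH. Its values were 154.1, 130.6, 171.9 and 155.7 CPM in Colo201 hosts and 143.6, 137.9, 228.9 and 250.1 CPM in HCT116 hosts. The HCT116 libraries labelled female stood above all others, and the HCT116 libraries labelled male were within the range of the Colo201 hosts. The log2 fold change between lines was -0.23 (SE 0.14, 95% confidence interval -0.56 to 0.09, adjusted p = 0.388).

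The carboxylases that make malonyl-CoA are Acaca, the cytosolic form that feeds synthesis, and Acacb, the form at the mitochondrial outer membrane whose product restrains fatty acid import. Acaca was even, at 83.4, 87.1, 82.0 and 74.3 CPM in Colo201 hosts and 85.9, 92.3, 101.6 and 68.3 CPM in HCT116 hosts. Its log2 fold change was -0.06 (SE 0.11, 95% confidence interval -0.31 to 0.20, adjusted p = 0.813), an interval that leaves out a change of the size measured for Acly. Acacb measured 65.02, 70.3, 63.7 and 42.0 CPM in Colo201 hosts and 53.1, 50.3, 41.8 and 29.5 CPM in HCT116 hosts. The Colo201 libraries other than 4R lay above every HCT116 library. Its log2 fold change was 0.51 (SE 0.15, 95% confidence interval 0.17 to 0.85, adjusted p = 0.0916), and DESeq2 gave an adjusted p of 0.0213.

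Fasn, fatty acid synthase, builds palmitate from malonyl-CoA (ENSMUSG00000025153, chr11:120805846-120824547, minus strand). It stood at 389.8, 485.8, 290.2 and 486.5 CPM in Colo201 hosts and at 318.4, 321.2, 263.6 and 229.1 CPM in HCT116 hosts. The Colo201 libraries other than 4L exceeded every HCT116 library, and 4L lay within the HCT116 range. The means were 413 ± 93.7 and 283 ± 44.7 CPM (SD, n = 4 each). The log2 fold change was 0.58 (SE 0.15, 95% confidence interval 0.24 to 0.92, adjusted p = 0.0632). DESeq2 gave an adjusted p of 0.00389, and edgeR without Colo201 4L gave 0.0457, at which setting Fasn passed and Acly did not. Without Colo201 4R the log2 fold change was 0.40.

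Thrsp (Spot 14) is a small nuclear and cytosolic protein that promotes lipogenesis in liver. It measured 312.8, 450.5, 227.1 and 487.1 CPM in Colo201 hosts and 322.7, 512.3, 282.6 and 410.9 CPM in HCT116 hosts. Within each title number the R library was above the L library, by 1.44-fold, 2.15-fold, 1.59-fold and 1.45-fold for numbers 2, 4, 1 and 3. The lines overlapped throughout, with a log2 fold change of -0.02 (SE 0.26, 95% confidence interval -0.61 to 0.56, adjusted p = 0.972). The interval is the widest of the 10 members. Pklr was the other member with R above L in 4 of 4 numbers, at 1.02-fold, 1.44-fold, 1.39-fold and 1.01-fold. Among all tested genes 6.50% had R above L in 4 of 4 numbers and 4.31% had R below L, and what L and R stand for is not given. The comparison of L with R was chosen after the values were seen.

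Srebf1 codes for SREBP-1, whose liver isoform SREBP-1c drives enzyme genes of the pathway, Fasn and Acly among them (ENSMUSG00000020538, chr11:60199089-60222581, minus strand). It stood at 157.1, 242.8, 117 and 183.5 CPM in Colo201 hosts and at 241.5, 283.7, 215 and 204.7 CPM in HCT116 hosts. The Colo201 libraries other than 2R lay below every HCT116 library. The means were 175 ± 52.8 and 236 ± 35.2 CPM, and the log2 fold change was -0.41 (SE 0.16, 95% confidence interval -0.77 to -0.06, unadjusted p = 0.0279, adjusted p = 0.172). Over the alternatives it ranged from -0.54 to -0.30 and did not pass in any of them. The counts are per gene, so the isoforms SREBP-1a and SREBP-1c were not told apart. Mlxipl, whose product ChREBP answers to carbohydrate, measured 141.3, 185.6, 149.8 and 196.5 CPM in Colo201 hosts and 188.7, 180.5, 246.6 and 195.0 CPM in HCT116 hosts. The overlap was broad, with HCT116 3L alone above all others. Its log2 fold change was -0.24 (SE 0.12, 95% confidence interval -0.50 to 0.03, adjusted p = 0.281).

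**Figure D2:**
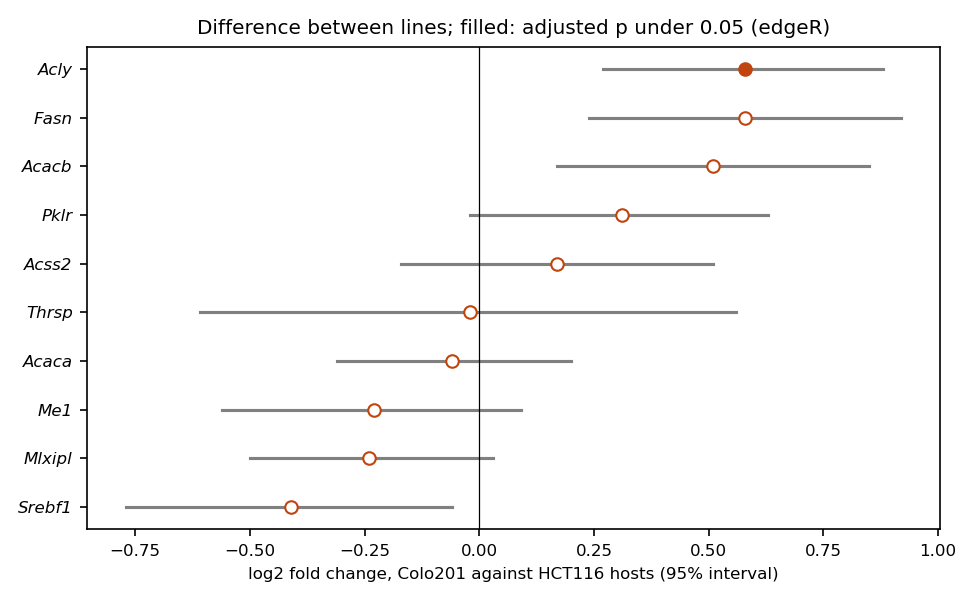
Log2 fold change between hosts of Colo201 and of HCT116 for the 10 genes, with 95% confidence intervals from the edgeR fit over all 8 libraries; the filled point passed an adjusted p of 0.05. Acly, Fasn and Acacb lie at 0.51 to 0.58, and Srebf1 lies at -0.41.

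Since Fasn, Acly and Acacb had positive log2 fold changes and Srebf1 a negative one, the ratio of FPKM within a library was also examined, a measure chosen after the values were seen and therefore given without a test. Fasn per Srebf1 was 1.28, 1.03, 1.28 and 1.36 in Colo201 hosts and 0.679, 0.583, 0.631 and 0.576 in HCT116 hosts. Each Colo201 library stood above each HCT116 library, and the means were 1.24 ± 0.144 and 0.617 ± 0.0477, a difference of 1.0 on the log2 scale. Acly per Srebf1 likewise did not overlap, at 1.45, 1.16, 1.55 and 1.42 against 0.66, 0.68, 0.799 and 0.623, a log2 difference of 1.01. Acacb per Srebf1 was 0.216 ± 0.0821 against 0.108 ± 0.0185, and Pklr per Srebf1 did not overlap either. Ratios are free of the scaling of a library, but not of what moves the genes in it.

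All 45 pairs of members were examined in this way, and 9 had ratios that did not overlap between lines. Over all pairs of the 15494 tested genes with counts in every library the share was 11.1%; pairs that share a gene are not independent, and no test was made. Srebf1 was part of 4, Fasn, Acly and Mlxipl of 3 each, and Me1 of 0. The other pairs were Fasn with Thrsp, Fasn with Mlxipl, Acly with Mlxipl, Acss2 with Mlxipl, and Acaca with Acly, which stood at 0.0941 to 0.149 in Colo201 hosts and 0.158 to 0.195 in HCT116 hosts. For comparison, 11.1% of all tested genes had a ratio to Srebf1 that was higher in every Colo201 library, and 0.724% one that was lower. Srebf2, the paralog that drives cholesterol synthesis, gave Srebf2 per Srebf1 of 0.497, 0.405, 0.563 and 0.345 in Colo201 hosts and 0.236, 0.21, 0.222 and 0.207 in HCT116 hosts, again without overlap.

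**Figure D3:**
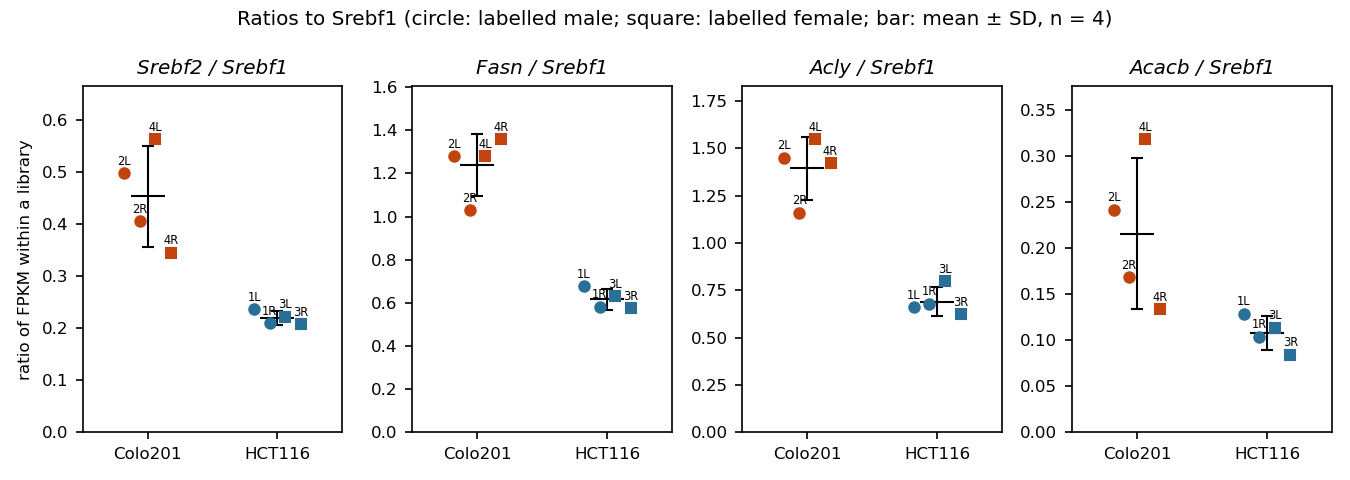
FPKM ratios to Srebf1 of Srebf2, Fasn, Acly and Acacb within each library, on axes from 0, for hosts of Colo201 and of HCT116, with the mean ± SD of 4 libraries as bars and the sex label as the marker shape. Fasn per Srebf1 and Acly per Srebf1 lie above 1 in each Colo201 library and below 1 in each HCT116 library.

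Per length, the levels spanned a wide range. Thrsp was the most abundant at 157 ± 43.3 FPKM (SD, n = 8 libraries, 94.06 to 215.04) and did not overlap with the next. Pklr at 55.4 ± 10, Me1 at 40.7 ± 10.4, Srebf1 at 33.3 ± 8.68, Acly at 32.5 ± 8.42, Mlxipl at 30.6 ± 5.31 and Fasn at 29.0 ± 8.04 FPKM followed, each overlapping with the next as far as Fasn. Acss2 at 8.95 ± 1.64 FPKM lay below all of these, and Acacb at 4.92 ± 1.32 and Acaca at 4.51 ± 0.56 FPKM were lowest and overlapped. Acaca per Acacb leaned to Acacb in Colo201 hosts and to Acaca in HCT116 hosts, with overlap, and it was 0.723, 0.699, 0.725 and 1.0 in Colo201 hosts and 0.913, 1.03, 1.37 and 1.30 in HCT116 hosts.

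The members did not vary as 1 block. Likeness was measured as the root mean square difference of log2 CPM after centring each gene on its mean over the 8 libraries. A small value means a like pattern or little variation in both genes. A distance is therefore read beside the gene's own spread, its root mean square deviation from its mean. Fasn and Acly were each other's nearest member, at 0.114 against own spreads of 0.37 and 0.355. Pklr and Acacb also stood nearest to Acly, but at 0.208 and 0.327. Acaca and Acss2 stood nearest to each other at 0.239, and Mlxipl to Acss2 at 0.240. The own spreads of Acaca, Acss2 and Mlxipl were 0.166, 0.241 and 0.232, so these distances show little or no shared pattern. Srebf1 was nearest to Thrsp at 0.309, Thrsp to Pklr at 0.300 and Me1 to Mlxipl at 0.303, so Srebf1 was about as far from its nearest member as Acacb, Me1 and Thrsp were from theirs. Colo201 2R was above a gene's own mean for 9 of the 10 genes and Colo201 4L below it for 8, and HCT116 3R was the lowest library for 5.

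Among 7768 tested genes with at least 10 CPM on average, Acly was the gene most like Fasn. It was followed by Ralb, a small GTPase, at 0.129, Men1, which codes for menin, at 0.141, Iffo2 at 0.161 and Pla1a, a phospholipase, at 0.162. Ralb measured 14.6, 17.3, 12.3 and 15.5 CPM in Colo201 hosts and 11.6, 12.9, 11 and 8.26 CPM in HCT116 hosts, so Colo201 4L again stood within the HCT116 range. The gene most like Srebf1 was Tef, a transcription factor of the circadian output, at 0.108. Tef stood at 111, 151, 84.2 and 110 CPM in Colo201 hosts and at 152, 193, 150 and 120 CPM in HCT116 hosts. Baz1b at 0.137, Slc12a9 and Ddx3x at 0.149 each and Dcun1d3 at 0.150 came next. The sources used here give no time of day for the collection.

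**Figure D4:**
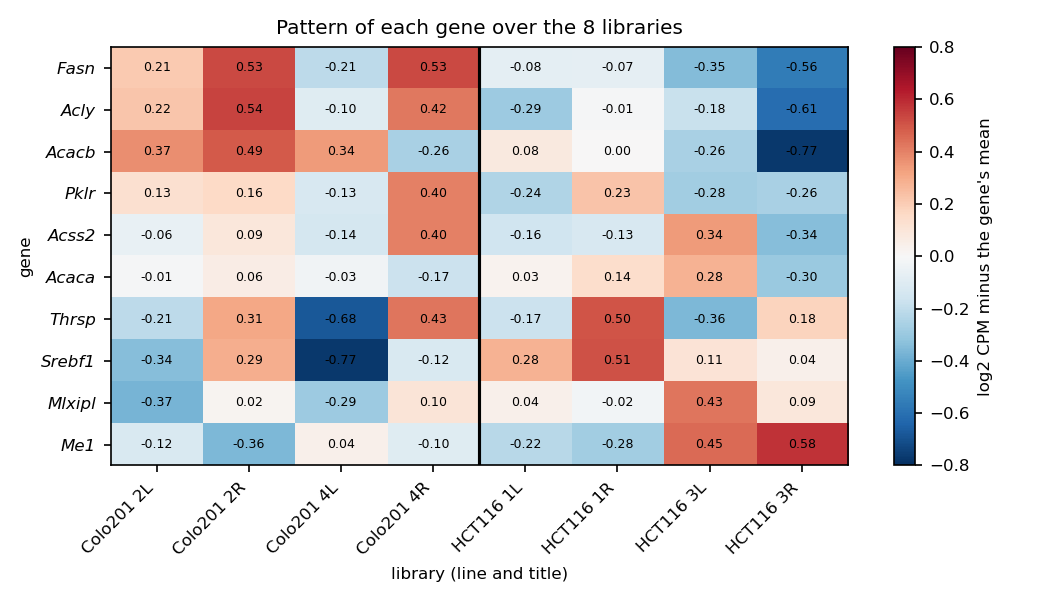
Log2 CPM of the 10 genes in each library, centred on each gene's mean over the 8 libraries and shown as colour and printed value, with red above and blue below the mean. Fasn and Acly share their pattern, high in Colo201 2R and 4R and low in HCT116 3R, while Srebf1 is lowest in Colo201 4L and highest in HCT116 1R.

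The line comparison was repeated within each sex label, with 2 libraries against 2 and the spread taken from all 8. No member passed within the label male (0.232% of all genes passed), within the label female (0.492%) or in the difference between these (0.0283%). By an unadjusted p under 0.05, edgeR gave 1, 4 and 1 members (13.1%, 14.1% and 4.10% of all genes by edgeR). Limma voom gave 2, 4 and 1 and DESeq2 2, 6 and 1. The shares of all genes were not counted for these tools, so whether the members exceeded them cannot be said. After adjustment voom called 0 in each, and DESeq2 called Me1 within the label female, where it called 747 genes and edgeR 87. Acly had log2 fold changes of 0.57 under the label male and 0.59 under the label female (adjusted p = 0.307 and 0.260), and Fasn 0.49 and 0.68. Srebf1 had -0.36 and -0.46, and Mlxipl -0.14 and -0.33. Me1 stood apart, at 0.06 under the label male and -0.53 under the label female, and the difference was -0.59 (SE 0.21, unadjusted p = 0.0255, adjusted p = 1).

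Between the sex labels, with line as a covariate, 0 of the 10 members passed and 4.02% of all genes did. An unadjusted p under 0.05 was reached by 3 members in edgeR, where 18.2% of all genes reached it. In voom and in DESeq2 3 members reached it. The shares of all genes were not counted there, so whether the members exceeded them cannot be said. Me1 had a log2 difference, male minus female as labelled, of -0.49 (adjusted p = 0.110), and DESeq2 called it. Acacb had 0.45 (adjusted p = 0.150) and Srebf1 0.36 (adjusted p = 0.271). Markers of some other cells moved with the label. In edgeR 4 of 8 endothelial markers were higher under the label male (8 of 8 at an unadjusted p under 0.05, median log2 difference 0.55). Their sums were 278 to 327 CPM against 183 to 241 CPM. Of 8 Kupffer cell markers 1 was higher (7 of 8 at an unadjusted p under 0.05, median 0.72), with sums of 352 to 440 CPM against 145 to 288 CPM. Of 8 stellate cell and of 8 cholangiocyte markers 0 passed and 0 had an unadjusted p under 0.05 in edgeR (medians 0.20 and -0.04). The part of any of these cells in the members' differences was not tested.

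Around the 10 genes, 10 lists of the pathway's other parts were counted in the same fit. Among 11 tested partners and paralogs 1 passed, with a median log2 fold change of 0.29. This was Srebf2, which was higher in Colo201 hosts at 99.7, 125.5, 83.9 and 80.7 CPM against 72.8, 75.9, 60.8 and 53.9 CPM, with no overlap (log2 fold change 0.59, adjusted p = 0.0105). Mid1ip1, a paralog of Thrsp that promotes the activity of acetyl-CoA carboxylase, had 0.65 (adjusted p = 0.205), with HCT116 1R lowest at 25.1 CPM against 50.3 to 93.9 CPM elsewhere. Mlx, the dimer partner of ChREBP, had -0.04 (adjusted p = 0.861).

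Of 18 genes of citrate, pyruvate and NADPH supply 2 rose and 0 fell, with a median of 0.04. Pgd, a dehydrogenase of the pentose phosphate pathway that yields NADPH, stood at 44.2, 47.8, 54.5 and 53.5 CPM in Colo201 hosts and at 28.4, 32.0, 38.0 and 36.3 CPM in HCT116 hosts. The lines did not overlap and the log2 fold change was 0.60 (adjusted p = 0.00826). H6pd, which yields NADPH within the endoplasmic reticulum, rose by 0.36 (adjusted p = 0.0446), a call lost without any 1 of the 8 libraries (adjusted p 0.0607 to 0.141). Slc25a1, the mitochondrial citrate carrier upstream of Acly, had 0.24 (adjusted p = 0.128). Of 11 genes of glucose and fructose entry 0 passed in edgeR, with a median of 0.03. An unadjusted p under 0.05 was reached by 4, against 21.7% of all genes. DESeq2 called 2 and voom 1, where over all 17669 genes they called 1993 and 1003.

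Downstream of Fasn, 3 of 12 genes of chain elongation and desaturation rose and 2 fell, with a median of 0.30. Elovl6, which extends palmitate to stearate, measured 61.8, 65.02, 69.8 and 56.3 CPM in Colo201 hosts and 29.7, 39.4, 53.2 and 38.3 CPM in HCT116 hosts, without overlap (log2 fold change 0.70, adjusted p = 0.038). Fads1, a desaturase of polyunsaturated fatty acids, rose by 0.42 (adjusted p = 0.0162) and Elovl1, of very long chains, by 0.66 (adjusted p = 0.0209). Hacd3, a dehydratase of the elongation cycle, fell by 0.43 (adjusted p = 0.025). Elovl3, named after its values were seen, gave -2.06 (adjusted p = 0.0483) but under the label male it stood at 0.0917 to 2.59 CPM and under the label female at 12.7 to 59.0 CPM. These calls were fragile: Elovl6 passed only without Colo201 4R or HCT116 3L among the 8 omissions, Hacd3 only without Colo201 2R, and Elovl1 only without Colo201 2R or 4R. Fads1 was lost without Colo201 4L or HCT116 1L, 1R or 3L. Omission of a library lost calls over all genes too, with 86 to 267 higher in Colo201 hosts against 439. The directions of Elovl6, Hacd3, Elovl1 and Fads1 held in each omission, with Elovl6 at 0.59 to 0.83 on the log2 scale.

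Scd1, the stearoyl-CoA desaturase and by FPKM the most abundant gene of that list, did not go with Fasn. It stood at 684.4, 785.0, 3071 and 1191 CPM in Colo201 hosts and at 3028, 2505, 2689 and 2331 CPM in HCT116 hosts. Colo201 4L was the highest of all libraries and the other Colo201 libraries were the lowest. The log2 fold change was -1.04 (adjusted p = 0.169), and without Colo201 4L it was -1.55 (adjusted p = 0.0123).

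Among 16 genes of triglyceride assembly 0 rose and 1 fell, with a median of -0.08. Lpin2, a phosphatidate phosphatase, fell by 0.83 on the log2 scale (adjusted p = 0.0174), from 282.6 to 412.9 CPM in HCT116 hosts to 173.6 to 196.0 CPM in Colo201 hosts, a call lost without Colo201 4L or HCT116 3L (adjusted p up to 0.0648). Pnpla3, a lipid-droplet protein induced by lipogenic feeding, was scarce, at 0.0489 to 4.52 CPM (log2 fold change 1.40, adjusted p = 0.172).

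The control of SREBP held 0 rises and 1 fall among 10 genes, with a median of -0.18. Sirt1, a deacetylase that acts on SREBP-1, fell by 0.48 (adjusted p = 0.0312), and the call was lost without any 1 library (adjusted p 0.0547 to 0.0997). Insig1 and Insig2, which retain SREBP in the endoplasmic reticulum, had 0.10 (adjusted p = 0.534) and 0.82 (adjusted p = 0.0861). Insig2 measured 222.3, 111.4, 210.9 and 264.2 CPM in Colo201 hosts against 99.0 to 133.4 CPM in HCT116 hosts, and passed without 2R (1.04, adjusted p = 0.014). Colo201 2R, low for Insig2, was the Colo201 library with the highest Srebf1. In HCT116 hosts the highest Srebf1 was in 1R, where Insig2 stood at 129 CPM, above 1L and 3R. This was seen after the values were known, and a tie between these genes was not tested.

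Of 17 transcriptional regulators of lipogenesis 1 rose and 2 fell, with a median of 0.01. Pparg, a lipogenic nuclear receptor that is low in normal mouse liver, stood at 4.57, 5.79, 2.01 and 2.19 CPM in Colo201 hosts and at 13.3, 12.2, 9.54 and 9.29 CPM in HCT116 hosts. The lines did not overlap, and Pparg fell by 1.70 (adjusted p = 0.00561). Nr1h4, the bile acid receptor FXR, fell by 0.46 (adjusted p = 0.0131), a call lost without HCT116 1L or 1R (adjusted p up to 0.0553). Usf1, an E-box factor of the Fasn promoter, rose by 0.46 (adjusted p = 0.0322), which was lost without any 1 library (adjusted p 0.0535 to 0.103). Nr1h3, the oxysterol receptor LXR alpha that activates Srebf1, had 0.34 (adjusted p = 0.0509), with 83.7 to 95.6 CPM in Colo201 hosts and 70.1 to 75.4 CPM in HCT116 hosts.

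The list of insulin input held 0 calls among 16 genes in edgeR, with a median of -0.07. An unadjusted p under 0.05 was reached by 6, against 21.7% of all genes. DESeq2 called 2 and voom 1, where over all 17669 genes they called 1993 and 1003. Of 13 genes that control acetyl-CoA carboxylase and malonyl-CoA 1 rose and 1 fell, with a median of -0.13. Trib3, a pseudokinase known to promote the degradation of acetyl-CoA carboxylase in mouse fat, stood at 55.3, 52.2, 94.7 and 68.8 CPM in Colo201 hosts and at 23.4, 15.1, 31.4 and 19.6 CPM in HCT116 hosts. It rose by 1.62 (adjusted p = 0.00665), with no overlap. Prkaa2, a catalytic subunit of the AMP-activated kinase that inhibits both carboxylases, fell by 0.57 (adjusted p = 0.0272) and kept its call only without Colo201 4R among the 8 omissions.

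Cholesterol synthesis was taken for comparison, as the other pathway under SREBP. Of its 20 genes 5 rose and 0 fell, 19 had positive log2 fold changes and the median was 0.68, against 1 of 10 and 0.07 for the lipogenic genes. Mvk, mevalonate kinase, had 1.49, Mvd, the decarboxylase of the same branch, 1.41 and Hmgcs1, the synthase that opens the pathway, 1.32. Within the label male the median of the 20 genes was 0.99, with 17 at an unadjusted p under 0.05 (edgeR, 13.1% of all genes). Within the label female it was 0.35, with 5 (14.1% of all genes). The lipogenic genes had medians of 0.12 and 0.09. The line difference, female minus male as labelled, was negative for 19 of the 20 cholesterol genes. Of these 20 genes 11 had an unadjusted p under 0.05 for it (edgeR), against 4.10% of all genes. The difference between the pathways was not tested.

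**Figure D5:**
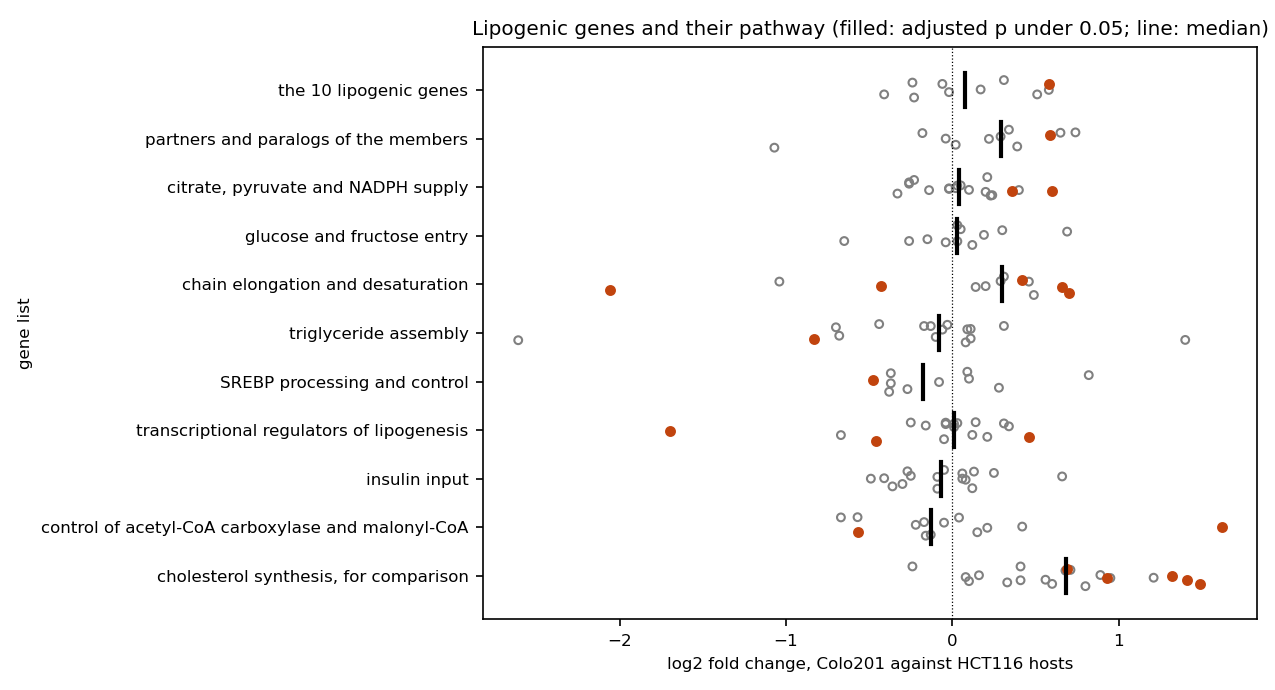
Log2 fold changes between hosts of Colo201 and of HCT116 for the tested genes of each list, with the median of each list marked and genes that passed an adjusted p of 0.05 filled. The cholesterol genes have a median of 0.68 and the 10 lipogenic genes a median of 0.07.

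Markers of other cells were summed over lists of 8 genes for each library, since in bulk tissue fewer cells of a type and less RNA per cell cannot be told apart. Adipocyte markers, of interest because fat tissue also expresses lipogenic enzymes, summed to 10.9 to 17.8 CPM in Colo201 hosts and 11.0 to 13.3 CPM in HCT116 hosts; Lep was at 0 in all 8 libraries and Adipoq at most at 0.128 CPM. Kupffer cell markers summed to 145 to 440 and 239 to 387 CPM, and endothelial markers to 183 to 321 and 197 to 327 CPM. Among Colo201 hosts both sums were lowest in 4R and highest in 2R. Cholangiocyte markers summed to 33.5 to 77.3 CPM in Colo201 hosts and 31.4 to 41.9 CPM in HCT116 hosts, stellate cell markers to 301 to 320 and 221 to 341 CPM, and hepatocyte markers to 147000 to 180000 and 121000 to 162000 CPM. Of 3 tested adipocyte, 8 Kupffer cell and 8 endothelial markers 0 passed the comparison of lines in edgeR. An unadjusted p under 0.05 was reached by 1, 0 and 1, against 21.7% of all genes. Of the hepatocyte markers 2 passed, Apoa1 (0.47) and Trf (0.51), of the cholangiocyte markers 1, Krt23 (4.13), and of the stellate cell markers 1, Reln (0.89). The part of any of these in the lipogenic genes' values was not tested.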

How the data were processed

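Estimated counts and FPKM per gene were deposited by the authors; the tools were HISAT2 and StringTie and the build GRCm38 (mm10), per the submitters' processing notes. The sources used here give no versions, annotation or strand setting for counting, so overlapping genes may share reads. Per the labels, libraries came from a stranded TruSeq mRNA kit. The deposited estimated counts are whole numbers, of which 44.7% of the values of 1 to 16 are multiples of 4, where an even spread gives 25%. The deposited FPKM follow from the counts and served for levels, ratios and alternatives.

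Symbols came from GENCODE vM21 (55141 of 55401 identifiers). CPM are counts scaled to a library total of 1000000. Counts were scaled by TMM, filtered by filterByExpr and tested (R 4.3.3, edgeR 4.0.16, glmQLFit and glmQLFTest) over 17669 genes, with sex label as a covariate and 5 residual degrees of freedom. Comparisons within a label and their difference used a mean for each combination of line and label (4 residual degrees of freedom). Two-sided p-values were adjusted over all tested genes by Benjamini-Hochberg, with a threshold of 0.05. The fit was tested on simulated data. Alternatives were DESeq2 1.42.0, limma 3.58.1 (voom, and log2(FPKM + 1) or log2(FPKM + 0.1)), other scalings and filters, no covariate, counts divided by 4, title numbers summed and each library left out.

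Named were the 10 members, passing genes of the other lists (at most 4 a list by p), a set of further genes whatever their result (1 of which is not reported here), and the 5 genes most like Fasn and Srebf1; others are said to be named after their values were seen. The members and lists were chosen with earlier results of these data known.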

Additional observations from a re-analysis of the deposited data

Results flagged for a closer look

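In groups of 4 libraries, a library was singled out where its gap to the nearest of the others was large against the whole range. Of 72 groups examined (36 genes in 2 lines) 3 held such a library, and chance gives about 1 in 20. Among the 20 groups of the lipogenic genes this was Pklr alone, at 227.2 CPM in HCT116 1R against 159.8 to 164.0 CPM in the other HCT116 libraries. Dhcr7 stood at 110.8 CPM in Colo201 4L against 145.8 to 150.7 CPM in the other Colo201 libraries. Mlx stood at 21.61 CPM in HCT116 1L against 27.55 to 28.53 CPM in the other HCT116 libraries.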

How the results depend on the processing

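No paired analysis was possible because the lines share no title numbers. With title numbers summed, 4 libraries and 1 residual degree of freedom remained. A lack of calls at that setting cannot tell a lost effect from lost power. Of 17669 genes 439 were higher and 406 lower in Colo201 hosts. DESeq2 gave 970 and 1023, no covariate 88 and 67, summed title numbers 0 and 0 (edgeR, lowest adjusted p = 0.0633, with 1787 and 1731 at an unadjusted p under 0.05), and omission of a library 86 to 267 and 89 to 283; log2(FPKM + 1) gave 292 higher. Of the lipogenic genes 1 was called higher; DESeq2 gave 3 (Acly, Fasn and Acacb), and no filter, no covariate, summed title numbers and either FPKM scale gave 0, as did 7 of the omissions in which the count was 0 to 1. Within the label male 41 genes passed (DESeq2 589, omissions 2 to 53) and within the label female 87 (DESeq2 747, voom 142, omissions 19 to 79), with 1 member by DESeq2. The difference between labels had 5 (DESeq2 53, omissions 0 to 15). Between labels 710 passed (DESeq2 1585, omissions 327 to 630), with 1 member by DESeq2 and 0 to 1 by omission: Me1 without Colo201 2L (-0.61, adjusted p = 0.0349) and Acacb without Colo201 4L (0.61, adjusted p = 0.0427).

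Directions turned by omission only for values near 0: Acaca over -0.14 to 0.05, Thrsp over -0.29 to 0.14 and Mlx over -0.10 to 0.04. The cause was not tested. Acly passed in 7 of 20 alternatives and Fasn in 2. Other scalings of the counts moved the median of all genes by at most 0.008 on the log2 scale. Over all alternatives the largest shift was 0.038, with log2(FPKM + 0.1). Depth was even; the number of libraries is small and any tie between L and R is unknown.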
